A study of Homo sapiens with 6 samples.

Results

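The genes described here are 38 genes of the endoplasmic reticulum (ER) and of the early secretory pathway, taken by their symbols from the deposited count tables. Each of the 38 symbols had 1 entry among the 25737 entries and 24462 different symbols of every library. They were sorted by role into 9 chaperones of the ER lumen, 4 protein disulfide isomerases, 2 lectin chaperones, 3 genes of ER-associated degradation, 4 stress sensors or transcription factors, 7 genes of translocation and 9 genes of vesicle coats, cargo exit and retrieval. Secreted and membrane proteins enter the ER through the SEC61 channel, are folded there by chaperones and disulfide isomerases, and leave in vesicles coated by COPII, while COPI vesicles and KDEL receptors bring escaped ER proteins back. When unfolded proteins build up, the sensors IRE1 (encoded by ERN1), PERK and ATF6 switch on the unfolded protein response, in which IRE1 splices the mRNA of XBP1 and the resulting factors induce chaperones and degradation genes. Transforming growth factor beta 1 (TGF-β1), the agent used here, is known to make epithelial cells secrete collagens and fibronectin, proteins that pass through this pathway.

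The samples were A549, a lung carcinoma epithelial line, and BEAS-2B, an immortalized bronchial epithelial line, both of wild-type genotype as labelled. Each line was left without TGF-β1 (control, 0 ng/mL) or was exposed for 48 h to TGF-β1 at 1 or 5 ng/mL, and each of these 6 conditions had 1 library of 3′ mRNA reads. TGF-β1 was given in medium that held less serum than the growth medium, and the medium of the controls is not stated in the labels, so that TGF-β1 and a change of medium cannot be told apart if the 2 differed. With 1 library a condition, no difference could be set against the spread between cultures, no test was run, and each line stands for itself.

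The libraries held between 4120624 and 7841350 counts. Each library was brought to a common effective size with factors from the trimmed mean of M-values (TMM), and the scaled count is the level given below. The log2 fold change (log2 FC) was taken on the scaled count plus 1. A gene is called higher or lower when its FC was at least 2 and its normalized data (ND) value, log2 of the scaled count plus 1, was at least 7 in at least 1 of both libraries, which corresponds to a scaled count of 127. The 95% intervals beside fold values are exact Clopper-Pearson intervals of the ratio of a pair of counts, and reads without molecular identifiers mean that they cover counting error only. Levels are not compared between genes. In bulk RNA, fewer cells with a transcript and less transcript per cell cannot be told apart. As a check of the labels, TGFBI, FN1 and SMAD7, all induced by TGF-β signaling, had log2 FC between 1.54 and 3.97 at 5 ng/mL in both lines. Of 6 epithelial markers, the keratin genes KRT8, KRT18 and KRT7 had at least 175 counts in each control and 5 ng/mL library. CDH1 counts were 640, 30 and 8 at 0, 1 and 5 ng/mL in A549 and 2, 0 and 2 in BEAS-2B, and EPCAM had a count of 0 in all 3 BEAS-2B libraries, which allows up to 3 counts in each. The summed scaled count of the 6 epithelial markers was 28857, 25337 and 27956 in A549 and 3236, 4379 and 4178 in BEAS-2B, and that of the mesenchymal pair VIM and CDH2 was 3352, 4770.2 and 6429.8 in A549 and 3369.6, 5394 and 6079.9 in BEAS-2B. Of the 6 epithelial markers, 5 had a log2 FC below 0 in A549 at 5 ng/mL, with a median of -2.26 over the list, and the sum was held level by KRT7, whose scaled count was 4024 in the control and 17495 at 5 ng/mL. KRT18 went from 16906 to 8818, and EPCAM and KRT19 had raw counts of 49, 7 and 2 and 41, 22 and 9 at 0, 1 and 5 ng/mL. CDH1 and KRT8 were called lower and KRT7 higher in A549 at 5 ng/mL, and KRT7 higher in BEAS-2B, and the part of these shifts in the results on the 38 genes was not tested. The blood marker PTPRC and the endothelial marker PECAM1 reached at most 4 counts, and CDH5 had 0 counts in all 6 libraries.

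Several of these genes carry an ER stress element in their promoter, the sequence through which ATF6 and XBP1 are known to act, and these elements are printed here as a description. Genes known to respond to ER stress were among those chosen, so the number with an element is not independent of the choice. Promoter windows from RefSeq (GRCh38.p14), from 250 bases before to 50 bases after each annotated start, were searched on both strands for ERSE, which is CCAAT, 9 free bases and CCACG, and for ERSE-II, which is ATTGG, 1 free base and CCACG. The 2 motifs share the block CCACG, and none of the genes named below had both. A window was found for 35 of the 38 genes, and PDIA3, KDELR2 and SEC24D had none. ERSE occurred in 27 of 35116 windows (0.0769%), or in 25 of 27305 symbols (0.0916%), among them 7 of the 35 genes: CALR, CANX, CRELD2, HSP90B1, HSPA5, PDIA6 and XBP1. ERSE-II occurred in 19 of 35116 windows (0.0541%), or in 19 of 27305 symbols (0.0696%), among them HERPUD1, HYOU1 and SDF2L1. Capitals mark the fixed blocks, each sequence reads 5′ to 3′ along the strand that holds the motif, and 4 bases are shown on either side.
HSPA5: ttcaCCAATcggcggcctCCACGacgg
HSP90B1, first site: ctgaCCAATcggaaggagCCACGcttc
HSP90B1, second site: cccaCCAATcgcgccgcaCCACGcacc
CALR: ccgaCCAATgatggtcgaCCACGcgtg
CANX: ccggCCAATcttcacactCCACGaaga
CRELD2: tggcCCAATccgagttcgCCACGagag
PDIA6: cggaCCAATgagccgcagCCACGgctt
XBP1: ctggCCAATcgcggagggCCACGaccg
HERPUD1: gccgATTGGgCCACGttgg
HYOU1, first site: actcATTGGaCCACGtccc
HYOU1, second site: tgggATTGGaCCACGtcac
SDF2L1: tttgATTGGtCCACGcttc
The motif lay at chr9:125241391-125241409 for HSPA5, at chr12:103930216-103930234 and chr12:103930321-103930339 for HSP90B1, at chr22:28800603-28800621 for XBP1 and at chr16:56932025-56932035 for HERPUD1. The HYOU1 sites lay at chr11:119057274-119057284 and chr11:119057380-119057390. A match describes the letters of a window and is no measurement of binding.

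Genes were called in both directions in each line. In A549 at 5 ng/mL, 34 of the 38 genes reached the minimum level, 1 was called higher (HSPA5) and 8 were called lower (DNAJB9, MANF, PDIA6, XBP1, SEC61B, SEC61G, SSR3 and SEC23A), beside 16.1% of all 7115 genes at the minimum called higher and 17.1% called lower. The median log2 FC of all 38 genes was -0.14, against 0.11 over all genes at the minimum. At 1 ng/mL, 0 genes were called higher and 7 lower (DNAJB9, DNAJC3, MANF, XBP1, SEC61B, SEC61G and SSR3), beside 10.9% and 12.6% of all genes, with a median of -0.18 against 0.09. In BEAS-2B at 5 ng/mL, 34 genes reached the minimum, 7 were called higher (HYOU1, PDIA3, SEC61A1, SEC24D, SEC31A, MIA3 and KDELR3) and 3 lower (MANF, SEC61G and SEC23A), beside 7.33% and 11.6% of all 6735 genes, with a median of 0.36 against 0.03. At 1 ng/mL, 5 were called higher (PDIA3, SEC61A1, SSR4, SEC24D and KDELR3) and 2 lower (MANF and SEC61G), beside 5.66% and 9.13%, with a median of 0.36 against 0.01. Both doses share the control library of their line, so they are given side by side. Scaling by total counts moved the median of all genes at 5 ng/mL to -0.14 in A549 and -0.12 in BEAS-2B, and then 0 of the 38 genes were called higher and 10 lower in A549, and 4 higher and 4 lower in BEAS-2B. Over all genes at the minimum, 798 of 7153 were then called higher and 1564 lower in A549. In BEAS-2B these were 373 and 1013 of 6872. Total counts also turned the sign of SEC24D and PDIA4 in A549 and of XBP1 in BEAS-2B at 5 ng/mL, and upper quartile factors or TMM within each line that of SEL1L in A549, all with values near 0. Counting intervals of the ratio at 5 ng/mL lay above 1 for 15 of the 38 genes and below 1 for 18 in A549, beside 44.7% and 37.0% of all genes at the minimum, and for 22 and 10 in BEAS-2B, beside 38.3% and 35.2%. The plot of log2 FC by role shows every gene at both doses.

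**Figure D1:**
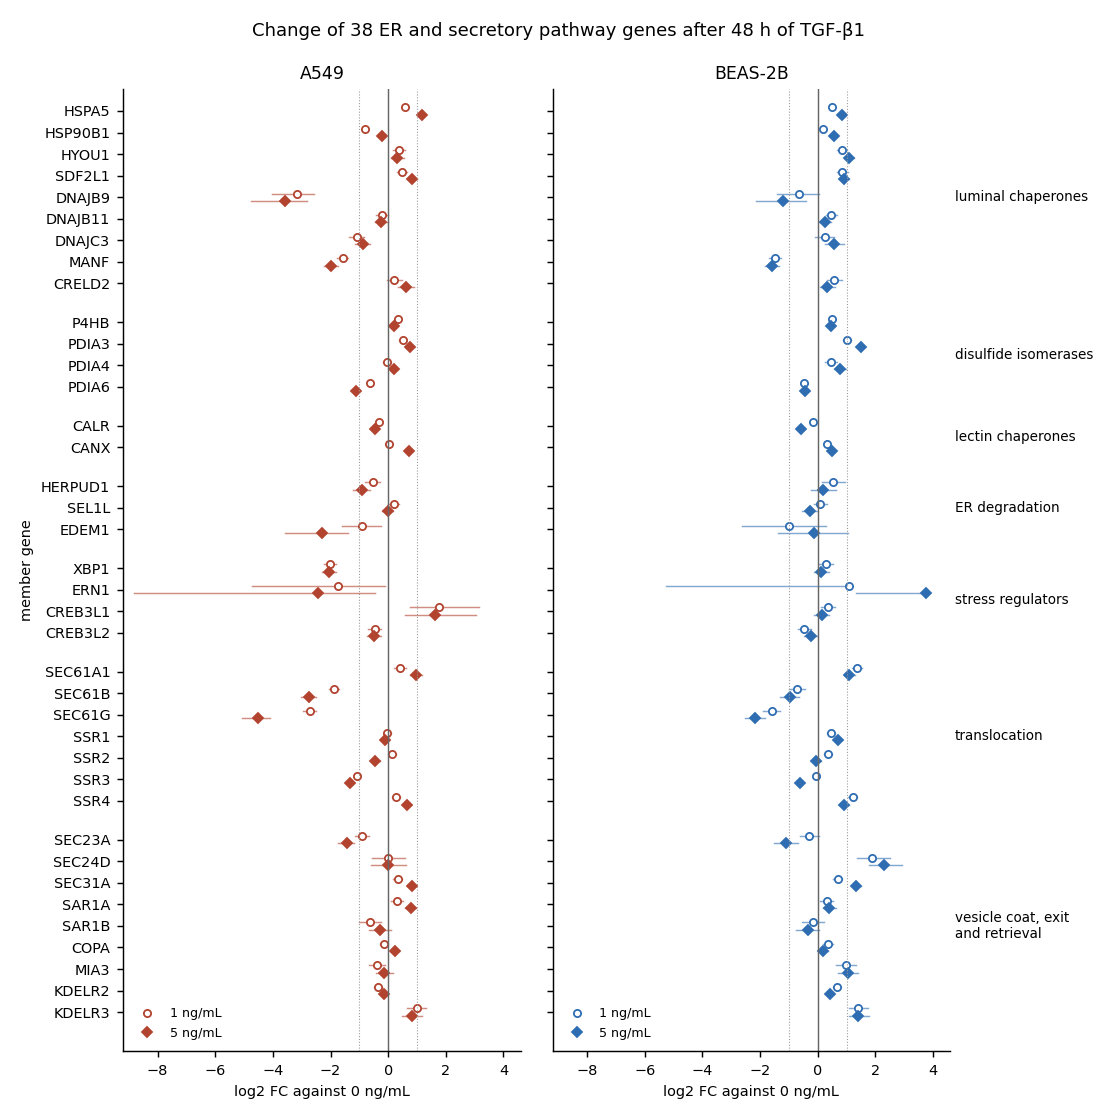
Log2 FC of the 38 genes against the control of the same line at 1 ng/mL (open circles) and 5 ng/mL (filled diamonds) TGF-β1, grouped by role, with A549 on the left and BEAS-2B on the right. Horizontal lines are 95% counting intervals of the ratio (for ERN1 in BEAS-2B, whose control count was 0, only the lower side exists), and dotted lines mark an FC of 2. SEC61G had the lowest value in A549 at -4.53, while SEC24D stood at 0.01 in A549 and 2.29 in BEAS-2B.

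HSPA5, which encodes BiP, the main Hsp70 chaperone of the ER lumen (here at chr9:125234853-125241330 on the minus strand of GRCh38), was the luminal chaperone called higher in A549. Its scaled counts were 5543, 8368 and 12564 in A549 at 0, 1 and 5 ng/mL and 5871, 8369 and 10618 in BEAS-2B. The level was higher at each larger dose in both lines, reaching 2.27-fold (95% interval 2.19 to 2.34) in A549 and 1.81-fold (1.75 to 1.87) in BEAS-2B at 5 ng/mL. Scaling by total counts ended the call in A549.

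HSP90B1, the Hsp90 chaperone of the ER also called GRP94, had scaled counts of 4953, 2866 and 4264 in A549 and 3359.6, 3858 and 4943 in BEAS-2B. The A549 control was above both treated A549 libraries, whereas the BEAS-2B control was below both treated BEAS-2B libraries. At 5 ng/mL the level was 1.16-fold lower (1.11 to 1.21) in A549 and 1.47-fold (1.4 to 1.54) that of the control in BEAS-2B, and neither passed an FC of 2. HYOU1, a large Hsp70-like exchange factor of BiP, had scaled counts of 306, 394 and 380.1 in A549 and 473, 852 and 1013 in BEAS-2B. It was 2.14-fold (1.9 to 2.41) its control in BEAS-2B at 5 ng/mL, which passed the limit except with scaling by total counts, and 1.24-fold (1.06 to 1.46) in A549, which did not. SDF2L1, which works with the J-domain protein DNAJB11 as a partner of BiP, was 1.78-fold (1.58 to 2.0) its control in A549 and 1.87-fold (1.66 to 2.12) in BEAS-2B at 5 ng/mL. CRELD2, a small ER stress protein with disulfide isomerase activity, was 1.54-fold (1.28 to 1.85) and 1.26-fold (1.05 to 1.51) the control. None of these values for SDF2L1 and CRELD2 passed an FC of 2.

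Of the luminal genes, 2 were called lower at 5 ng/mL in A549, and 1 of them in BEAS-2B as well. DNAJB9, a J-domain protein (ERdj4) at chr7:108569568-108574850 that holds the sensor IRE1 in its inactive state, had raw counts of 113, 20 and 11 in A549 and 45, 28 and 17 in BEAS-2B. It was 9.53-fold lower (95% interval 5.89 to 16.2) at 1 ng/mL and 13.1-fold lower (7.06 to 27.0) at 5 ng/mL in A549. BEAS-2B had too few counts for a call, at 2.34-fold lower (1.32 to 4.37) at 5 ng/mL. The A549 calls ended when the minimum ND value was set to 8, when it was asked of both libraries, and when the libraries were thinned to the smallest total.

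MANF, a secreted ER stress protein that binds BiP (at chr3:51385047-51389397), was called lower in both lines at both doses. Its scaled counts were 757, 252 and 191 in A549 and 753, 270.1 and 252 in BEAS-2B. The 2 controls were almost level, and all 4 treated libraries lay between 191 and 270.1 scaled counts. At 5 ng/mL MANF was 3.95-fold lower (3.38 to 4.64) in A549 and 2.99-fold lower (2.55 to 3.52) in BEAS-2B. DNAJC3, a J-domain cochaperone also known as p58IPK that inhibits PERK, had scaled counts of 329, 155 and 178 in A549 and 162, 192 and 242 in BEAS-2B. It was called lower in A549 at 1 ng/mL, at 2.13-fold lower (1.78 to 2.55), a call that ended when the trend over GC content was removed, and it was 1.5-fold (1.2 to 1.87) the control in BEAS-2B at 5 ng/mL. DNAJB11, the J-domain protein ERdj3, stayed within an FC of 1.5 in all 4 comparisons, with log2 FC of -0.21 and -0.24 in A549 and 0.47 and 0.25 in BEAS-2B.

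**Figure D2:**
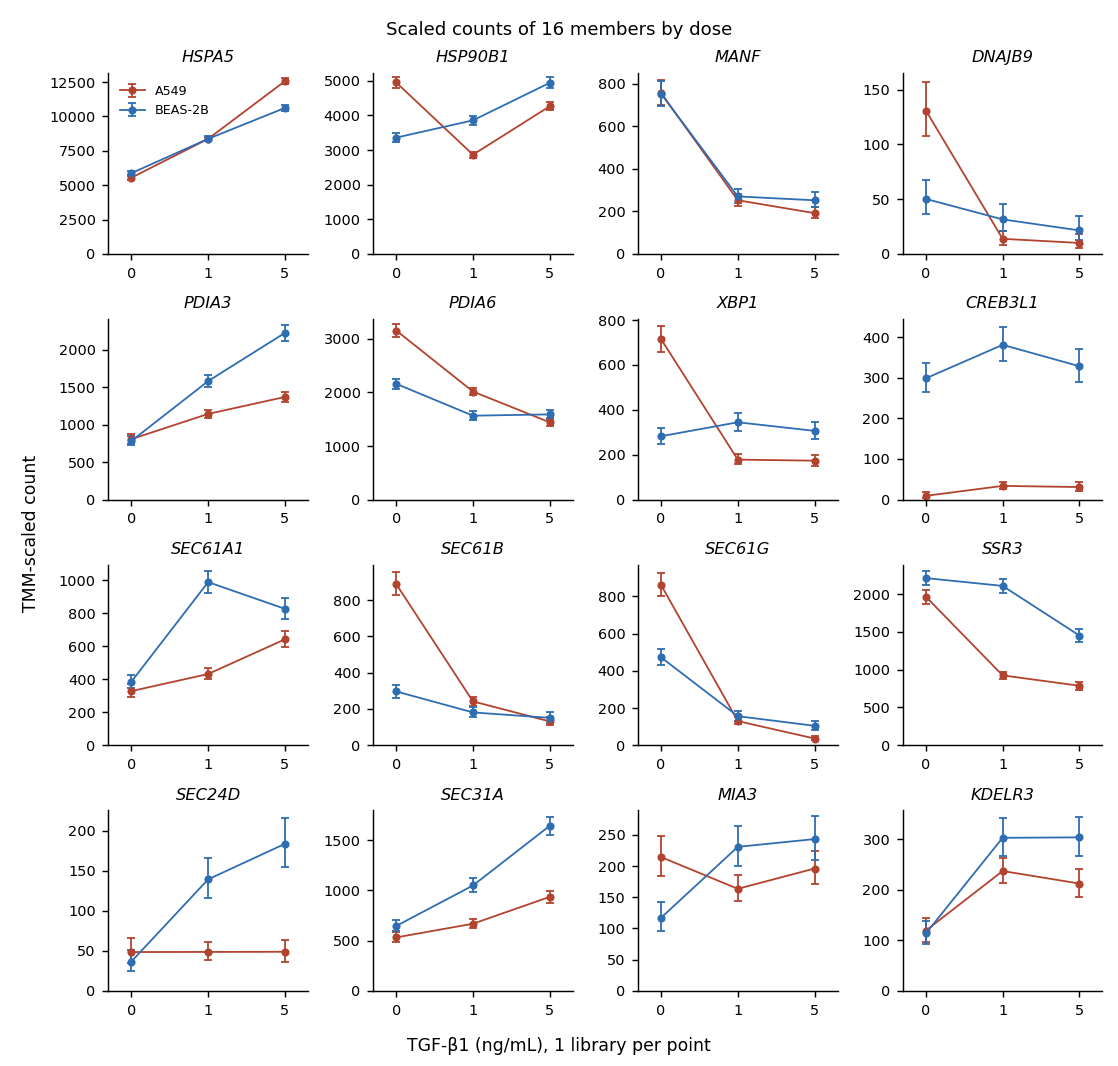
TMM-scaled counts (vertical axis, from 0) of 16 genes at 0, 1 and 5 ng/mL TGF-β1 (horizontal axis), A549 in red and BEAS-2B in blue, with 1 library per point and 95% Poisson intervals that cover counting error only. HSPA5 stood above its control at both doses in both lines, MANF and SEC61G stood below it, while XBP1 was called in A549 alone and SEC24D in BEAS-2B alone.

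Among the enzymes that form disulfide bonds, PDIA3 was called higher in BEAS-2B and PDIA6 called lower in A549, and each stood on the same side of its control in the other line. PDIA3 (ERp57, which acts on glycoproteins together with calnexin and calreticulin) had scaled counts of 806, 1143 and 1369 in A549 and 782, 1581 and 2224 in BEAS-2B. The controls were close to each other and the level was higher with each dose. It was called higher in BEAS-2B, at 2.02-fold (1.85 to 2.22) at 1 ng/mL and 2.84-fold (95% interval 2.61 to 3.11) at 5 ng/mL, and was 1.7-fold (1.55 to 1.86) the control in A549 at 5 ng/mL. The call at 1 ng/mL ended with scaling by total counts. The near-identical processed copy PDIA3P1 had raw counts of 636, 1004 and 852 in A549 and 571, 1018 and 1139 in BEAS-2B, so that reads of both cannot be told apart here and the PDIA3 values are uncertain to that extent. The A549 libraries held 4144476, 7841350 and 6101351 counts, so the raw counts of PDIA3P1 in A549 do not give a direction across the doses. The BEAS-2B libraries held 4252712, 4601813 and 4120624 counts, and there the raw count of PDIA3P1 was higher at each larger dose. The part of shared reads in the PDIA3 values was not tested.

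PDIA6, which reduces IRE1 among other substrates, had scaled counts of 3157, 2017 and 1443 in A549 and 2162, 1566 and 1591 in BEAS-2B. It was 2.19-fold lower (95% interval 2.06 to 2.33) at 5 ng/mL in A549, a call that ended when the trend over GC content was removed, and 1.36-fold lower (1.27 to 1.46) in BEAS-2B. ATP6V1C2, which overlaps PDIA6 on the opposite strand, had raw counts of 2397, 2569 and 1213 in A549 and 1840, 1197 and 912 in BEAS-2B, and the strand used in counting was not given in the sources used here. These raw counts are not corrected for library size, which in A549 was 4144476, 7841350 and 6101351 counts at 0, 1 and 5 ng/mL. In A549 the raw count at 5 ng/mL was nevertheless below that of the control, although its library was larger. In BEAS-2B, with libraries of 4252712, 4601813 and 4120624 counts, the raw count was lower at each larger dose. The part of shared reads in the PDIA6 values was not tested. P4HB, the classical disulfide isomerase and a subunit of the collagen prolyl 4-hydroxylase, had scaled counts of 2063, 2605 and 2392 in A549 and 3215, 4564 and 4449 in BEAS-2B, and was 1.16-fold (1.09 to 1.23) and 1.38-fold (1.32 to 1.45) its control at 5 ng/mL. PDIA4 (ERp72) was 1.15-fold (1.04 to 1.28) the control in A549 and 1.71-fold (1.48 to 1.98) in BEAS-2B. The intervals of P4HB and PDIA4 lay above 1 in both lines at 5 ng/mL, but no value passed an FC of 2.

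The 2 lectin chaperones, which hold newly made glycoproteins until they are folded, stood on opposite sides of their controls in both lines at 5 ng/mL. The membrane-bound calnexin gene CANX had scaled counts of 6711, 6838 and 10979 in A549 and 6997, 8838 and 9904 in BEAS-2B, and was 1.64-fold (1.59 to 1.69) and 1.42-fold (1.37 to 1.46) the control. The soluble calreticulin gene CALR had scaled counts of 4203, 3391 and 3062 in A549 and 6710.2, 6024 and 4526 in BEAS-2B, and was 1.37-fold lower (1.31 to 1.44) and 1.48-fold lower (1.42 to 1.55). Neither gene passed an FC of 2.

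In the degradation branch, which takes misfolded proteins out of the ER, no gene was called. SEL1L, the adaptor of the HRD1 ubiquitin ligase, had scaled counts of 444, 506 and 439 in A549 and 342, 363 and 281 in BEAS-2B. At 5 ng/mL it was 0.99 times (0.864 to 1.13) its control in A549 and 0.82 times (0.687 to 0.978) in BEAS-2B. HERPUD1, a membrane protein of the same ligase complex and a target of the stress response, had scaled counts of 263, 181 and 139 in A549 and 103, 149.7 and 117 in BEAS-2B. It was 1.89-fold lower (1.54 to 2.34) at 5 ng/mL in A549, while in BEAS-2B it was 1.46-fold (1.11 to 1.92) the control at 1 ng/mL and 1.14-fold (0.846 to 1.54) at 5 ng/mL. EDEM1, a mannosidase-like protein that marks misfolded glycoproteins, had raw counts of 42, 37 and 10 in A549 and 15, 7 and 12 in BEAS-2B, below the minimum in every library. Its A549 count at 5 ng/mL was 5.36-fold lower (2.65 to 12.0) after scaling, and in BEAS-2B a difference was not detectable at this depth, at 0.903 times (0.386 to 2.07) the control.

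XBP1, the transcription factor of the IRE1 branch (at chr22:28794555-28800597 on the minus strand), was the regulator called lower, in A549 and at both doses. Its scaled counts were 715, 178 and 173 in A549 and 282, 344 and 306 in BEAS-2B. The A549 control was above the BEAS-2B control, and both treated A549 libraries lay below all 3 BEAS-2B libraries. At 1 and 5 ng/mL XBP1 was 4.02-fold lower (3.47 to 4.66) and 4.13-fold lower (3.5 to 4.88) in A549, and 1.22-fold (1.03 to 1.45) and 1.08-fold (0.906 to 1.3) its control in BEAS-2B. Counts of 3′ ends do not tell the spliced from the unspliced mRNA.

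ERN1, which encodes IRE1, was near the limit of detection, with raw counts of 8, 3 and 1 in A549 and 0, 1 and 10 in BEAS-2B. In A549 at 5 ng/mL the single count was 10.2-fold lower (1.37 to 453) than the control after scaling. In BEAS-2B the count of 0 in the control allows up to 3 counts. Against 3 counts the library at 5 ng/mL was 3.76-fold higher, a value that leaves out the counting error of its own 10 counts. CREB3L1 (OASIS), a membrane-bound factor known to act on collagen genes, had raw counts of 8, 49 and 34 in A549, below the minimum, and 268, 339 and 261 in BEAS-2B. The A549 level at 5 ng/mL was 3.33-fold (1.51 to 8.32) that of the control and the BEAS-2B level 1.1-fold (0.924 to 1.31). CREB3L2, its relative that is known to act on the COPII gene SEC23A, had scaled counts of 344, 249 and 247 in A549 and 424, 306 and 360.2 in BEAS-2B, and its log2 FC at 5 ng/mL was -0.48 and -0.23.

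The subunits of the SEC61 channel, through which nascent proteins enter the ER, stood on different sides of their controls in the same libraries. SEC61A1, the pore subunit, had scaled counts of 328, 431 and 641 in A549 and 385, 988 and 826 in BEAS-2B. It was 1.96-fold (95% interval 1.7 to 2.25) its control in A549 at 5 ng/mL and was called higher in BEAS-2B, at 2.57-fold (2.26 to 2.92) at 1 ng/mL and 2.15-fold (1.88 to 2.45) at 5 ng/mL. The BEAS-2B call at 5 ng/mL ended with scaling by total counts and with the trend over the GC content of 3′ ends removed, and the A549 value passed the limit when libraries were thinned. SEC61G, the small gamma subunit (at chr7:54752250-54759974 on the minus strand), had scaled counts of 862, 129.9 and 36.3 in A549 and 473, 156 and 105 in BEAS-2B. The control was the highest and the 5 ng/mL library the lowest in each line, and no treated library reached its control. It was 23.8-fold lower (95% interval 17.3 to 33.5) in A549 and 4.52-fold lower (3.57 to 5.8) in BEAS-2B at 5 ng/mL, and both calls ended when the minimum was asked of both libraries, since the treated level lay under it. SEC61B, the beta subunit (at chr9:99222064-99230615), had scaled counts of 889, 242 and 132 in A549 and 297, 181 and 151 in BEAS-2B. It was 6.76-fold lower (5.65 to 8.12) in A549, which was called, and 1.96-fold lower (1.58 to 2.46) in BEAS-2B, which missed the limit.

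The translocon-associated protein (TRAP) complex, which sits beside the channel, is made of SSR1 to SSR4, and its subunits did not move together either. SSR4 had scaled counts of 789, 956 and 1246 in A549 and 569, 1321 and 1072 in BEAS-2B, and was called higher in BEAS-2B at 1 ng/mL, at 2.32-fold (2.09 to 2.58). SSR3 had scaled counts of 1965, 925 and 788 in A549 and 2212, 2109 and 1452 in BEAS-2B, and was called lower in A549, at 2.12-fold lower (1.98 to 2.28) and 2.5-fold lower (2.3 to 2.71) at 1 and 5 ng/mL. The first of these calls ended when the trend over GC content was removed. SSR1 was 0.931 times (0.85 to 1.02) its control in A549 and 1.62-fold (1.46 to 1.78) in BEAS-2B at 5 ng/mL, and SSR2 was 0.727 times (0.65 to 0.813) and 0.954 times (0.85 to 1.07). Of the 7 translocation genes, 3 were called lower and 0 higher in A549 at 5 ng/mL, beside 17.1% and 16.1% of all genes at the minimum. In BEAS-2B 1 was called lower and 1 higher, beside 11.6% and 7.33%.

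Among the genes of vesicle coats and cargo exit, SEC24D (at chr4:118722823-118838683 on the minus strand), a cargo adaptor of the COPII coat that is needed for collagen export, was called higher in BEAS-2B and stayed level in A549. Its raw counts were 42, 71 and 54 in A549 and 33, 124 and 146 in BEAS-2B, or scaled counts of 48.7, 48.8 and 49.0 and 36.8, 139.5 and 184. The 3 A549 libraries were level, and both treated BEAS-2B libraries were far above their control. In BEAS-2B it was 3.79-fold (2.56 to 5.75) its control at 1 ng/mL and 5.0-fold (95% interval 3.41 to 7.53) at 5 ng/mL. In A549 it was 1.01-fold (0.66 to 1.54) its control at 5 ng/mL. Both BEAS-2B calls ended when the minimum ND value was set to 8, which the treated levels did not reach, or was asked of both libraries, which the control did not reach, and that at 1 ng/mL also ended when the libraries were thinned.

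SEC31A, which forms the outer COPII cage, had scaled counts of 533, 669 and 936 in A549 and 647, 1049.8 and 1644 in BEAS-2B. The level was higher with each dose in both lines, at 1.76-fold (1.57 to 1.97) and 2.54-fold (2.3 to 2.81) the control at 5 ng/mL, and the latter was called. MIA3 (TANGO1), a receptor that loads collagen into COPII carriers, had scaled counts of 214, 164 and 196 in A549 and 117, 231 and 243 in BEAS-2B. It was 2.08-fold (1.63 to 2.66) its control in BEAS-2B at 5 ng/mL, which was called except with scaling by total counts or a stricter minimum, and 0.914 times (0.748 to 1.12) in A549. SEC23A, the inner COPII subunit that pairs with SEC24 proteins, went the other way, with scaled counts of 383, 205 and 141 in A549 and 183, 149.7 and 85.7 in BEAS-2B. It was called lower in both lines at 5 ng/mL, at 2.73-fold lower (2.25 to 3.32) and 2.14-fold lower (1.6 to 2.88), and the second call ended with a stricter minimum. SAR1A, one of a pair of GTPases that start the COPII coat, was 1.72-fold (1.51 to 1.97) its control in A549 and 1.32-fold (1.13 to 1.54) in BEAS-2B, and its paralog SAR1B 0.823 times (0.635 to 1.07) and 0.781 times (0.592 to 1.03).

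On the way back to the ER, KDELR3, one of the receptors that recover luminal proteins ending in KDEL, had scaled counts of 119, 237 and 212 in A549 and 114, 303 and 304 in BEAS-2B. Its controls were nearly level and all 4 treated libraries stood above both. It was called higher in BEAS-2B, at 2.67-fold (2.11 to 3.4) at 5 ng/mL, and was 1.99-fold (1.59 to 2.5) and 1.78-fold (1.41 to 2.27) its control in A549 at 1 and 5 ng/mL. The BEAS-2B call ended when the minimum was asked of both libraries. KDELR2, another such receptor, had scaled counts of 862, 678 and 779 in A549 and 733, 1171 and 982 in BEAS-2B, and COPA, the alpha subunit of the COPI coat, 847, 761 and 993 and 647, 828 and 739. At 5 ng/mL the log2 FC was -0.15 and 0.42 for KDELR2 and 0.23 and 0.19 for COPA. Of the 9 vesicle genes, 0 were called higher and 1 lower in A549 at 5 ng/mL, beside 16.1% and 17.1% of all genes at the minimum. In BEAS-2B 4 were called higher and 1 lower, beside 7.33% and 11.6%.

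Some of the genes overlap another gene, and without the counting strand their reads cannot be told apart for certain. Besides PDIA6, the opposite strand held DDX17 at KDELR3 (up to 2861 counts in a library), RUVBL1 at SEC61A1 (up to 520), IDH3G at SSR4 (up to 349), ALG12 at CRELD2 (up to 254), PNPLA8 and THAP5 at DNAJB9 (up to 197 and 136), NCSTN at COPA (up to 179) and SEC24A at SAR1B (up to 145). On the same strand lay DAGLB at KDELR2 (up to 125), THAP9-AS1 at SEC31A (up to 41) and CAGE1 at SSR1 (up to 3). Knowing the strand would not separate the reads of these pairs. DDX17 had raw counts of 1340, 2329 and 1692 in A549 and 2861, 2039 and 1725 in BEAS-2B. These are not corrected for library size, which in A549 was 4144476, 7841350 and 6101351 counts. The part of shared reads in the KDELR3 values was not tested.

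**Figure D3:**
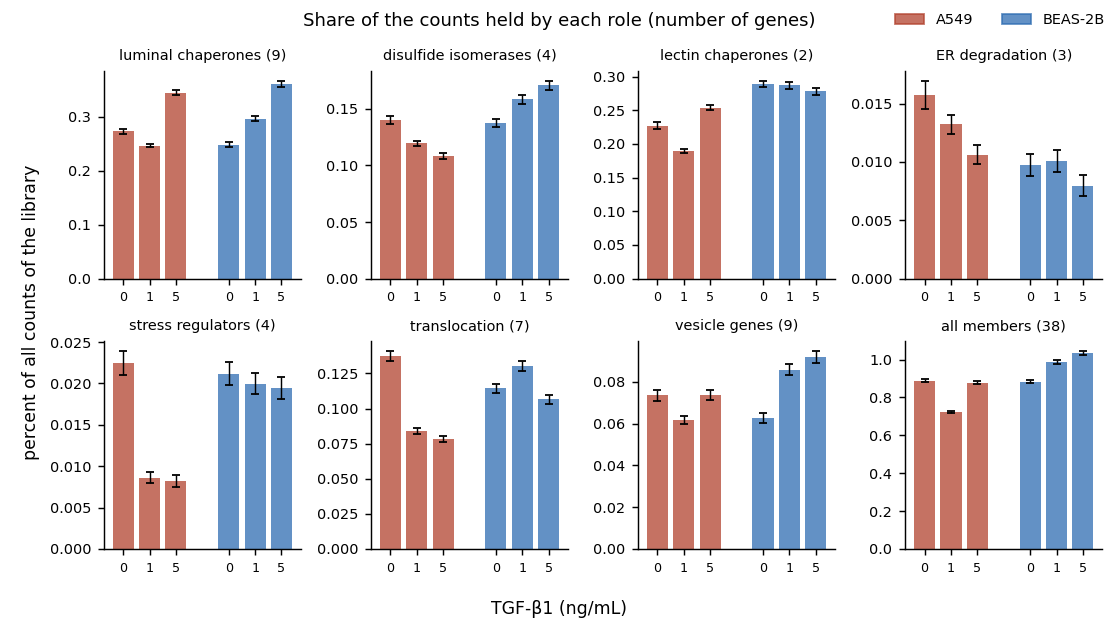
Percent of all counts of a library (vertical axes, from 0) held by the genes of each role and by all 38 genes, at 0, 1 and 5 ng/mL TGF-β1 in A549 (red) and BEAS-2B (blue), with exact 95% binomial intervals. The share of the stress regulators in A549 went from 0.0224%, of which XBP1 made up 66.3%, to 0.00816% at 5 ng/mL, and that of the vesicle genes in BEAS-2B from 0.0628% to 0.0918%.

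Summed by role, the 38 genes held 0.889%, 0.723% and 0.877% of all counts in A549 at 0, 1 and 5 ng/mL and 0.883%, 0.988% and 1.04% in BEAS-2B. On scaled sums, luminal chaperones were at 1.46 times their control in A549 (1.42 to 1.49) and 1.59 times in BEAS-2B (1.55 to 1.63) at 5 ng/mL, and HSPA5 alone made up 65.9% and 56.6% of their counts there. Without HSPA5, left out after its share was seen, the other luminal chaperones together were at 0.863 times their control in A549 (0.834 to 0.893) and 1.37 times in BEAS-2B (1.33 to 1.43). Of the 9 luminal genes, 5 had a log2 FC below 0 in A549, with a median of -0.22, and 2 in BEAS-2B, with a median of 0.56. Disulfide isomerases were at 0.893 (0.862 to 0.925) in A549 and 1.36 (1.32 to 1.41) in BEAS-2B, translocation genes at 0.656 (0.632 to 0.682) and 1.02 (0.979 to 1.06), vesicle genes at 1.16 (1.1 to 1.21) and 1.6 (1.52 to 1.68), and regulators at 0.419 (0.375 to 0.468) and 1.0 (0.91 to 1.1). PDIA6 made up 47.0% of the isomerase counts in the A549 control. Of the 4 isomerases, 3 had a log2 FC above 0 in A549 at 5 ng/mL and 1 below, with a median of 0.21. XBP1 made up 66.3% of the regulator counts in the A549 control. At 5 ng/mL in A549 the log2 FC was -2.04 for XBP1, -2.43 for ERN1, -0.48 for CREB3L2 and 1.63 for CREB3L1. Lectin chaperones were at 1.29 (1.25 to 1.32) and 1.05 (1.03 to 1.08), and degradation genes at 0.777 (0.696 to 0.868) and 0.895 (0.772 to 1.04). The sum of all 38 genes was at 1.14 (1.12 to 1.15) in A549 and 1.28 (1.27 to 1.3) in BEAS-2B. In A549 its direction turned with total counts in place of TMM factors, as the percentages show, and in BEAS-2B the same held for the lectin and translocation genes and for the regulators, whose ratio lay near 1.

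Set side by side at 5 ng/mL, 29 of the 38 genes had a higher log2 FC in BEAS-2B than in A549, beside 42.7% of the 5832 genes at the minimum in both lines. The median difference, A549 minus BEAS-2B, was -0.55 over the 38 genes, against 0.12 over the 5832 genes. The counting intervals of both ratios did not overlap for 25 genes. In 22 of them the ratio was larger in BEAS-2B and in 3 (HSPA5, CANX and CREB3L1) in A549, beside 18.0% and 31.7% of the 5832 genes. Restricted to the 32 genes at the minimum in both lines, these counts were 17 and 2. Both lines gave a log2 FC above 0 for 16 genes and below 0 for 13, while 9 genes were below 0 in A549 and above 0 in BEAS-2B and 0 genes the reverse. The 9 genes were HSP90B1, DNAJB11, DNAJC3, HERPUD1, XBP1, ERN1, SSR1, MIA3 and KDELR2. Of them, 7 were at the minimum in both lines, beside 10.6% of all 5832 genes. Across the 38 genes, Pearson's r between the lines was 0.50 and Spearman's rho 0.64, and across the 5832 genes they were 0.68 and 0.62. These describe genes of the same 4 libraries, which are not independent. The difference between the lines was not tested, for want of replicates.

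**Figure D4:**
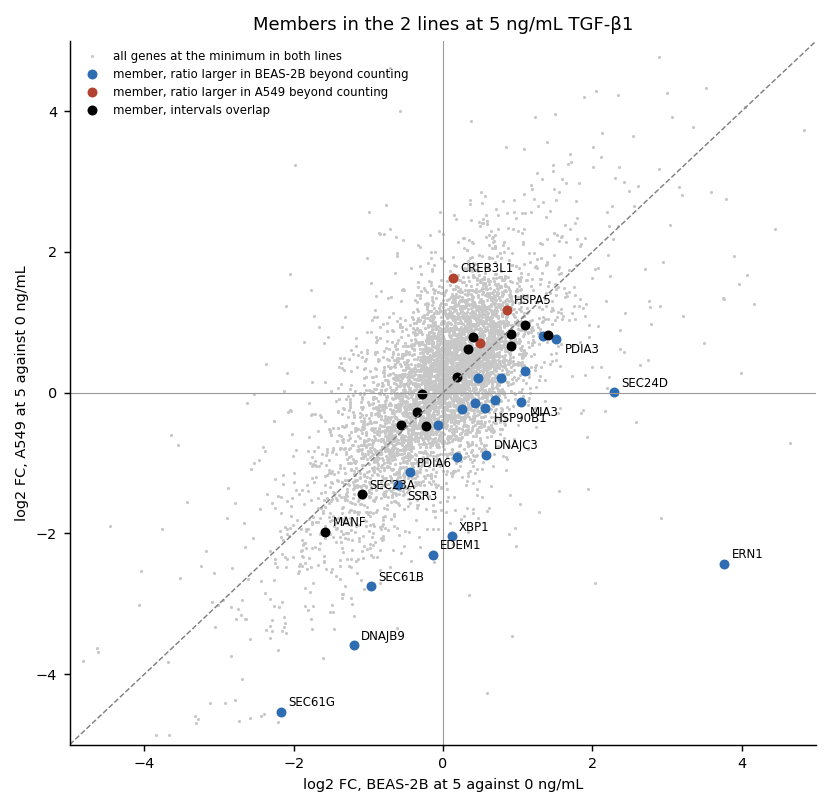
Log2 FC at 5 against 0 ng/mL TGF-β1 in A549 (vertical axis) against BEAS-2B (horizontal axis) for the 38 genes (large points) and all genes at the minimum in both lines (grey, values beyond 5 not drawn), with the line of equality dashed. Blue points have a ratio larger in BEAS-2B beyond counting error and red points one larger in A549, and 22 of the 25 points with intervals apart are blue. ERN1, at the right, rests on 0 and 10 counts in BEAS-2B.

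The lines also differed without TGF-β1. In the controls, 6 of the 38 genes were called higher in A549 and 1 lower, beside 18.1% and 18.9% of all genes. SEC61B was 3.0-fold (2.6 to 3.46) the BEAS-2B level, DNAJB9 2.61-fold (1.83 to 3.77), HERPUD1 2.56-fold (2.0 to 3.3), XBP1 2.53-fold (2.18 to 2.94), SEC23A 2.1-fold (1.73 to 2.54) and DNAJC3 2.03-fold (1.66 to 2.5). CREB3L1 was 32.3-fold (16.1 to 75.5) higher in the BEAS-2B control. This comparison uses the same control libraries as those of the doses above. The calls of DNAJC3 and SEC23A ended when the trend over GC content was removed, that of DNAJC3 also with TMM within each line, and those of CREB3L1, DNAJB9 and HERPUD1 when the minimum was asked of both libraries. That of DNAJB9 also ended with a minimum ND value of 8 and with thinned libraries. The step from 1 to 5 ng/mL, which uses no control, called few genes. In A549 it called 0 genes higher and 1 lower (SEC61G), beside 1.61% and 1.79% of all genes, and in BEAS-2B 0 and 0, beside 0.492% and 0.412%.

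The other genes of the pathway, 120 entries in 6 lists, were counted in the same way. At 5 ng/mL the median log2 FC of all 120 entries was -0.25 in A549 and 0.00 in BEAS-2B. Over the 99 entries at the minimum in A549 it was -0.26, and over the 91 at the minimum in BEAS-2B it was 0.05. Of these 99, 3 were called higher and 24 lower, and of these 91, 5 higher and 8 lower, beside the same percentages of all genes as above. Those lower in both lines were TRAM1 (a protein beside the SEC61 channel), DDOST (a subunit of the oligosaccharyltransferase), SRP9 (of the signal recognition particle), SEC11A and SPCS1 (of the signal peptidase), ERLIN1 and SYVN1 (of ER-associated degradation, SYVN1 encoding the ligase HRD1) and PPP1R15A (GADD34, which ends the translation block of the stress response). TRAM1 had scaled counts of 2171, 535 and 297 in A549 and 485, 113 and 190.2 in BEAS-2B, and was 7.32-fold lower (6.5 to 8.26) and 2.55-fold lower (2.12 to 3.09) at 5 ng/mL. Across these 8 genes the log2 FC ran from -2.87 to -1.32 in A549 and from -1.93 to -1.14 in BEAS-2B. PPP1R15A had scaled counts of 145, 77.6 and 43.5 in A549 and 331, 158 and 128 in BEAS-2B, and was 3.33-fold lower (2.37 to 4.74) and 2.58-fold lower (2.05 to 3.26). In the translocation and glycosylation list, 9 of 27 genes were called lower in A549 and 5 in BEAS-2B, and 0 were called higher in either line.

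Among genes that reached the minimum in at least 1 library, the highest and lowest of each list were looked at. Genes with fewer counts can lie beyond them. ATF4, the transcription factor downstream of PERK, had scaled counts of 1758, 3520.4 and 3255 in A549 and 1643, 3588 and 3505 in BEAS-2B, and was 1.85-fold (1.74 to 1.97) and 2.13-fold (2.0 to 2.27) its control at 5 ng/mL. PPIB, cyclophilin B, a proline isomerase that acts on collagen, had scaled counts of 472, 369 and 386 in A549 and 100.4, 262 and 363 in BEAS-2B, and was 1.22-fold lower (1.06 to 1.4) in A549 and 3.61-fold (2.84 to 4.63) its control in BEAS-2B. SEC24A, a paralog of SEC24D, was 0.755 times (0.51 to 1.12) its control in A549 and 3.77-fold (2.61 to 5.58) in BEAS-2B, whereas SEC24C was 2.75-fold lower (2.06 to 3.71) and 1.93-fold lower (1.37 to 2.74). GBF1, an exchange factor for the ARF GTPases that start the COPI coat, was 2.83-fold (2.4 to 3.34) and 1.72-fold (1.49 to 1.98), and COPG1, a COPI subunit, 1.59-fold (1.24 to 2.04) and 2.1-fold (1.63 to 2.71). EDEM2, which trims mannose from misfolded glycoproteins, had raw counts of 134, 32 and 24 in A549 and 72, 4 and 9 in BEAS-2B, with a log2 FC of -2.78 and -2.72.

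The remaining ends of the lists, under the same minimum, are given as log2 FC at 5 ng/mL in A549 and then BEAS-2B. Among folding genes, the BiP exchange factor SIL1 stood at 0.73 and 0.79, ERP44, which retains thiol proteins in the early secretory pathway, at -1.46 and -0.64, and the proline isomerase FKBP2 at -0.62 and -0.78. Among degradation genes, AUP1 stood at 1.26 and 0.79 and the signal peptide peptidase HM13 at 0.63 and 0.90. Among translocation genes, SRP14 of the signal recognition particle stood at 0.78 and 0.37, the oligosaccharyltransferase subunit OSTC at 0.01 and 0.78, and SEC11C of the signal peptidase at -2.04 and -2.05. Among vesicle genes, the cargo receptor ERGIC3 stood at 0.55 and 0.62, CTAGE5, a partner of MIA3, at -1.86 and -0.89, and the GTPases ARF4 and ARF1 at -1.26 and -0.99 in A549 and -0.34 and -0.53 in BEAS-2B.

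The genes with an ER stress element printed above did not share a direction. At 5 ng/mL, the 7 genes with ERSE had a log2 FC of 1.18 (HSPA5), 0.71 (CANX), 0.62 (CRELD2), -0.22 (HSP90B1), -0.46 (CALR), -1.13 (PDIA6) and -2.04 (XBP1) in A549. In BEAS-2B the same genes stood at 0.85, 0.50, 0.33, 0.56, -0.57, -0.44 and 0.12. Of the genes with ERSE-II, HYOU1 and SDF2L1 were above 0 in both lines, and HERPUD1 was at -0.92 in A549 and 0.19 in BEAS-2B.

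Base composition moved with the changes, and mostly in A549. Over all genes at the minimum, the median log2 FC at 5 ng/mL went from -0.23 in the fifth of genes with the lowest GC content in the last 400 bases of the transcript to 0.73 in the fifth with the highest, and in BEAS-2B from 0.02 to 0.25. The 38 genes had a median of 37.6% GC in this stretch, from 26.25% in EDEM1 to 60.75% in SEC61A1, against 41.25% over all genes at the minimum in A549. Spearman's rho between GC content and log2 FC was 0.42 in A549 and 0.20 in BEAS-2B over the 38 genes. With the trend of 3′ ends removed in 20 bins, an alternative added after the data were seen, 5 genes were called higher in A549 at 5 ng/mL (HSPA5, CANX, KDELR3, SAR1A and SEC31A) and 7 lower, with a median of -0.02. Over all genes, 979 of 7115 were then called higher and 1120 lower, with a median of 0.11. With this trend removed, 28 of 38 genes still had the higher log2 FC in BEAS-2B. With the trend over whole transcripts removed, the A549 median was 0.03. The cause of the trend was not tested.

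**Figure D5:**
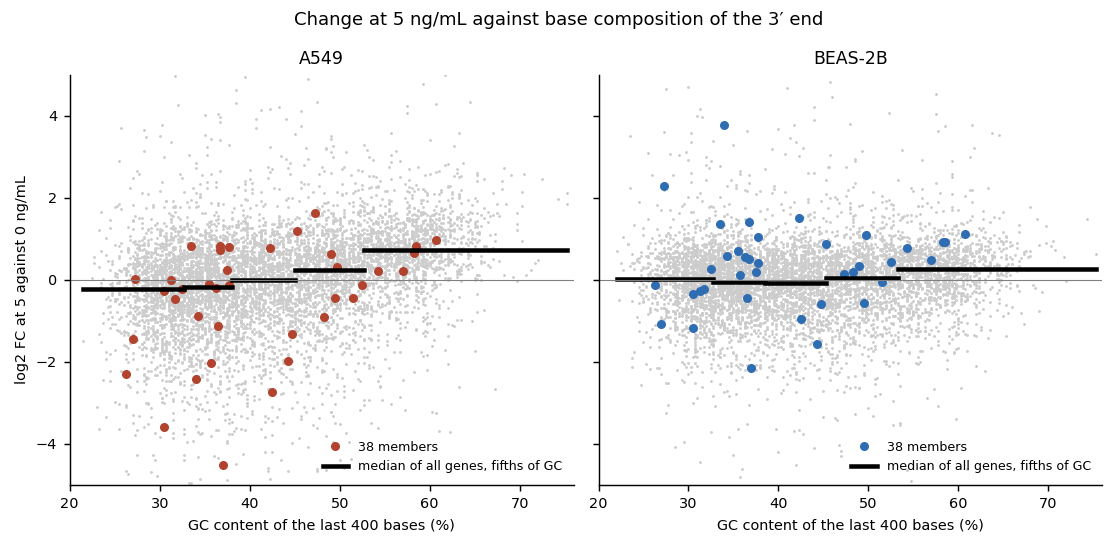
Log2 FC at 5 against 0 ng/mL (vertical axis) against the GC content of the last 400 bases of the transcript in percent (horizontal axis) for all genes at the minimum (grey, values beyond 5 not drawn) and the 38 genes (colored), in A549 (left) and BEAS-2B (right). Black bars are medians of all genes in 5 bins of GC content, which run from -0.23 to 0.73 in A549 and from -0.07 to 0.25 in BEAS-2B.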

How the data were processed

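Total RNA of the 6 samples was made into QuantSeq 3′ mRNA libraries and read by a service provider. The values that the authors deposited are raw read counts per gene symbol, whole numbers without normalization, in 1 file per library with the same entries. The submitters' processing notes name Bowtie2, bedtools and hg19 without a role or version, and the strand used in counting is not given in the sources used here. Samples were grouped by their labels. The 38 genes, their roles and the lists of other genes were chosen with earlier results of these data known.

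TMM factors came from edgeR 4.0.16 in R 4.3.3, over all entries. Intervals were computed with scipy 1.17.1, tables with pandas 2.3.3 and numpy 2.4.6 and figures with matplotlib 3.10.9, in Python 3.11.15. With 1 library per condition there was no test. All 38 genes are named. Of the other lists, genes called at 5 ng/mL in the same direction in both lines and the highest and lowest log2 FC of each list are named, among genes that reach the minimum of 7 on the ND scale. The steps were tested on simulated data.

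Gene positions and GC content came from GENCODE on GRCh38, to which 22580 of 24462 symbols were matched, and since this is not the build of the counts they only describe the genes. Promoter windows came from RefSeq. Alternatives were DESeq2 1.42.0 size factors, total counts, upper quartile factors, TMM within each line, a filter at 10 counts, pseudocounts of 0.1 and 5, minimum ND values of 6 and 8 or in both libraries, thinned libraries, an FC limit of 1.5, entries of one symbol summed, and the trend over GC content removed. Protein sequences were not used here, and 1 gene of the check of the labels is not reported here.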

Additional observations from a re-analysis of the deposited data

Results flagged for a closer look

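Among the genes named above, 4 had at both doses a counting interval of the ratio below 1 in A549 and above 1 in BEAS-2B, with 1 library per condition, and the difference between the lines was not tested. The share of all genes that meet this rule was not computed. At 5 ng/mL, the interval lay below 1 for 37.0% of all genes at the minimum in A549 and above 1 for 38.3% in BEAS-2B. HSP90B1 had a log2 FC of -0.79 at 1 ng/mL and -0.22 at 5 ng/mL in A549, and of 0.20 and 0.56 in BEAS-2B. DNAJB11 had a log2 FC of -0.21 and -0.24 in A549, and of 0.47 and 0.25 in BEAS-2B. KDELR2 had -0.35 and -0.15 in A549, and 0.68 and 0.42 in BEAS-2B. PPIB, which is not among the 38 genes, had -0.35 and -0.29 in A549, and 1.38 and 1.84 in BEAS-2B. Removing the trend over GC content brought some of the A549 values at 5 ng/mL above 0. HSP90B1 was then at 0.01 and KDELR2 at 0.11 with the trend over whole transcripts removed, and DNAJB11 was at 0.13 with that over 3′ ends removed.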

How the results depend on the processing

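No paired analysis was possible because each group had 1 library, and no library could be left out for the same reason. Of 345 alternative values of the counts of called genes, the medians and the difference between the lines, 317 stayed within the range set for them (a count within 1.5 times the main count) and 28 did not. The sign of the A549 median turned at 5 ng/mL with the transcript GC trend removed, from -0.14 to 0.03, and from 1 to 5 ng/mL with DESeq2 size factors or upper quartile factors, from -0.03 to 0.01. With total counts, 0 genes were called higher in A549 and 4 in BEAS-2B at 5 ng/mL, 0 were lower from 1 to 5 ng/mL in A549, and the BEAS-2B median at 1 ng/mL was 0.23. Over all genes, 798 of 7153 and 373 of 6872 were higher at 5 ng/mL. Among all genes, 134 of 6276 were lower from 1 to 5 ng/mL in A549, and the BEAS-2B median at 1 ng/mL was -0.12. With a minimum ND value of 8, and also with thinned libraries, 0 were lower from 1 to 5 ng/mL in A549, beside 54 of 4101 and 117 of 5696 of all genes. Thinning gave 1 gene higher in A549 at 1 ng/mL and 2 at 5 ng/mL, beside 684 of 6215 and 1041 of 6291 of all genes. With the minimum in both libraries, 0 were lower from 1 to 5 ng/mL in A549 and 0 in the controls, 3 were higher in BEAS-2B at 1 ng/mL, and 4 were higher and 1 lower at 5 ng/mL, by construction since fewer genes qualify. In the same order, these counts over all genes were 42 of 5611, 656 of 5023, 185 of 5394, and 246 and 329 of 5312. With an FC limit of 1.5, 2 were higher and 11 lower in A549 at 1 ng/mL, 10 higher at 5 ng/mL, and 2 higher and 3 lower from 1 to 5 ng/mL. Over all genes these counts were 1690 and 1515 of 7007, 2126 of 7115, and 543 and 545 of 6467. In BEAS-2B the same limit gave 10 higher at 1 ng/mL, 12 higher and 5 lower at 5 ng/mL, and 1 higher and 1 lower from 1 to 5 ng/mL, and it gave 4 lower in the controls. All genes gave 1014 of 6681, 1296 and 1493 of 6735, 263 and 306 of 6306, and 2264 of 7329 in the controls. With either trend over GC content removed, 1 gene was higher in A549 at 1 ng/mL and 5 at 5 ng/mL, and the cause was not tested. Over all genes, 573 (whole transcripts) and 583 (3′ ends) of 7007 were then higher at 1 ng/mL, and 974 and 979 of 7115 at 5 ng/mL. The difference between the lines at 5 ng/mL kept its direction in every alternative, with 28 to 31 of 38 genes higher in BEAS-2B. The share over all genes was computed in the main setting only, at 42.7%. Depth limits the genes with few counts, such as ERN1, EDEM1 and SEC24D, and one library per condition limits every statement on TGF-β1.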
